A study of Mus musculus with 6 samples.

Results

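The 6 actin isoforms of the mouse were taken from the expression tables by their gene symbols, and all 6 were found among 23284 genes. They are the cytoplasmic isoforms Actb (beta-actin) and Actg1 (gamma-actin), the striated muscle isoforms Acta1 (skeletal alpha-actin) and Actc1 (cardiac alpha-actin), and the smooth muscle isoforms Acta2 (vascular alpha-actin) and Actg2 (enteric gamma-actin). The RNA is that of the cell fraction sorted from bone marrow on day 21 as C1498, by GFP and CD49b. C1498 is an acute myeloid leukemia (AML) line of the mouse, carried as a single EGFP clone. It had been injected into the veins of C57BL/6 J mice. Transcripts of other cell types were present in the sorted fraction, as given below. Mice in the treated group had received cytarabine, a nucleoside analog that blocks DNA synthesis, and those of the control group are called both PBS-treated and untreated in the sample records. The dose and days of cytarabine are not stated for the RNA mice in particular, and all 6 mice carried the same leukemia. The libraries, 1 per mouse, are called cytarabine 1 to 3 and control 1 to 3. Values are FPKM, fragments scaled to transcript length and to the fragments mapped in the library, so levels of different isoforms are compared per length.

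Actin is the globular protein that polymerizes into the thin filaments of the cytoskeleton and of muscle. The cytoplasmic isoforms are made in nearly every cell and drive shape change and crawling, while the muscle isoforms belong to the contractile apparatus of skeletal, heart and smooth muscle. Free actin monomers hold the coactivator MRTFA (gene Mkl1) in the cytoplasm, and once released it joins the serum response factor SRF at CArG boxes in the promoters of actin and other cytoskeletal genes.

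The genes lie on 6 different chromosomes of GRCm38, the assembly also called mm10, all on the minus strand. Actb is at chr5:142903115-142906754, Actg1 at chr11:120345690-120348542, Acta1 at chr8:123891769-123894751, Actc1 at chr2:114047282-114053548, Acta2 at chr19:34241090-34255590 and Actg2 at chr6:83512905-83536265. Their coding sequences have 375 codons in Actb and Actg1, 377 in Acta1, Actc1 and Acta2, and 376 in Actg2. Of 1134 columns of the aligned coding sequences, 790 hold the same base in all 6 genes. The start of the coding sequence is shown because the classes differ there, with capitals marking bases that are not the same in all 6 genes. Each stretch of 60 bases lies within 1 coding exon and begins at the start codon, on the minus strand of GRCm38 at chr5:142905627-142905686 for Actb, chr11:120348032-120348091 for Actg1, chr8:123893638-123893697 for Acta1, chr2:114051972-114052031 for Actc1, chr19:34252494-34252553 for Acta2 and chr6:83527382-83527441 for Actg2.
Actb: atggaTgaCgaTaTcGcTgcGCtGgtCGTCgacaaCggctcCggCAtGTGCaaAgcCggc
Actg1: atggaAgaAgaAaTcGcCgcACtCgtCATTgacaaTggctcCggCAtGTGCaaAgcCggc
Acta1: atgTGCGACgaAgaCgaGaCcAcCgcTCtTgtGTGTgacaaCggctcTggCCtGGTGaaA
Actc1: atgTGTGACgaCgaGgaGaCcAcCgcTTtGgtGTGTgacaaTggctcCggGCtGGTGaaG
Acta2: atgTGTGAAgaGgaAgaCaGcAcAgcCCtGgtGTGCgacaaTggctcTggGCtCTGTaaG
Actg2: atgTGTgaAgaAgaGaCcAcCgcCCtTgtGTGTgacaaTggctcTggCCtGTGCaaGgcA
The muscle isoforms carry extra codons after the start codon that Actb and Actg1 lack. Over the whole coding sequence Actb and Actg1 were identical at 88.7% of bases, the muscle isoforms at 82.5 to 86.2% between each other, and the classes at 81.9 to 85.3%.

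With 75-base reads this similarity left few reads in doubt between isoforms. Of all 75-base windows of the Actb transcript, 1.25% matched another actin isoform with at most 2 mismatches, as did 1.06% of Actg1, 0.729% of Acta1 and 0% of Actc1, Acta2 and Actg2. Similarity to other annotated genes was larger for the cytoplasmic isoforms, at 29.7% of windows for Actb and 56.1% for Actg1, and at most 1.46% for a muscle isoform. For Actg1 every coding window had such a match, in many cases in a pseudogene without a row in the tables, so the levels of Actb and Actg1 depend on how such reads were assigned. Acta1 and Actc1 each overlap a gene on the opposite strand, and whether the counting used strand is not given in the sources used here.

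RefSeq promoters, from 250 bases before to 50 after the start site, were matched for 4 of 6 isoforms, Actg1, Acta1, Actc1 and Acta2. They are shown because the CArG box is the element through which SRF reaches actin genes, with capitals marking the box found by its pattern on either strand.
Actc1: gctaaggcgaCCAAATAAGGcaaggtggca
Acta1: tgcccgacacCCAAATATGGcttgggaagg
Actg1: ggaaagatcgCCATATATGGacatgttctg
These windows lie on the minus strand of GRCm38.p6 at chr2:114052903-114052932, chr8:123894829-123894858 and chr11:120348566-120348595. The boxes begin 47, 73 and 90 bases before the start sites of Actc1, Acta1 and Actg1. Thus 3 of 4 promoters held an exact box, against 1.63% of 32851 promoters of the same length. The Acta2 window held none without a mismatch and 2 with 1 mismatch allowed, which 21.1% of all promoters match at least once.

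The sorted cells carried Ptprc, the common leukocyte antigen CD45, at 283.5 to 385.5 FPKM and Itga2, which encodes the sort marker CD49b, at 7.79 to 13.3 FPKM. The T cell gene Cd3e was at 129.6 to 199.3 FPKM, whereas the myeloid genes Itgam, Cd33 and Mpo were at 0.933 to 4.76, 0.500 to 2.12 and 2.33 to 71.1 FPKM. These 4 genes were chosen after values were seen. Neutrophil genes were abundant in the same libraries, with S100a8 at 83.0 to 792.0 FPKM and S100a9 at 61.5 to 809.0 FPKM. Cytarabine 2, cytarabine 3 and control 1 stood apart by transcripts of the colon epithelium, and values for them are given beside the results they touch. Inferred depth was 11470000 to 18840000 reads per library.

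The sorted fraction of both groups carried abundant cytoplasmic actin mRNA, and the 2 isoforms differed little between libraries. Actb was at 4728, 3941 and 3762 FPKM in cytarabine 1, 2 and 3, against 3359.9, 4381 and 4314 FPKM in control 1, 2 and 3. The highest value was in cytarabine 1 and the lowest in control 1, and the groups overlapped. Actb ranked between place 6 and place 12 of all genes by FPKM in every library. Actg1 was at 2378, 2066 and 2044 FPKM with cytarabine, against 1782, 2055 and 1979.6 FPKM in controls. Cytarabine 1 was again highest and control 1 lowest, and cytarabine 3 lay below control 2, so the groups overlapped here too. From the lowest to the highest library Actb spanned 1.41-fold and Actg1 1.33-fold. Of the tested genes, 46.7% had a wider range than Actb and 58.0% a wider range than Actg1.

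The muscle isoforms were lower in every library, and they differed far more from mouse to mouse. Acta1, the actin of skeletal muscle that is also made in the heart, was at 4.16, 0.816 and 43.0 FPKM in cytarabine 1, 2 and 3, against 197.6, 49.3 and 4.94 FPKM in control 1, 2 and 3. Control 1 stood highest and cytarabine 2 lowest, and cytarabine 3 lay above control 3. Actc1, the main actin of the adult heart, was at 1.67, 8.24 and 107.7 FPKM with cytarabine, against 384.6, 77.2 and 7.46 FPKM in controls. Here too control 1 was highest, and cytarabine 3 exceeded control 2 and control 3. In such bulk RNA, fewer cells of a type and less RNA per cell cannot be told apart. The lowest values rest on few reads, with about 19 for Acta1 in cytarabine 2 and about 28 for Actc1 in cytarabine 1 at the inferred depth.

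Acta2, the actin of vascular and other smooth muscle, was at 43.2, 306.6 and 348.4 FPKM in cytarabine 1, 2 and 3, against 391.0, 82.7 and 13.2 FPKM in control 1, 2 and 3. Control 1, cytarabine 3 and cytarabine 2 were high and the other 3 libraries low, across both groups. Actg2, the actin of the gut wall and other visceral smooth muscle, was at 36.5, 145.9 and 207.0 FPKM with cytarabine, against 120.7, 14.7 and 3.67 FPKM in controls. The same 3 libraries were high, with cytarabine 3 in front of cytarabine 2 and control 1. The highest library exceeded the lowest 242-fold for Acta1, 230-fold for Actc1, 29.6-fold for Acta2 and 56.4-fold for Actg2. Only 0.581%, 0.487%, 1.66% and 1.18% of the tested genes, in the same order, had a wider range on the log2 scale.

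**Figure D1:**
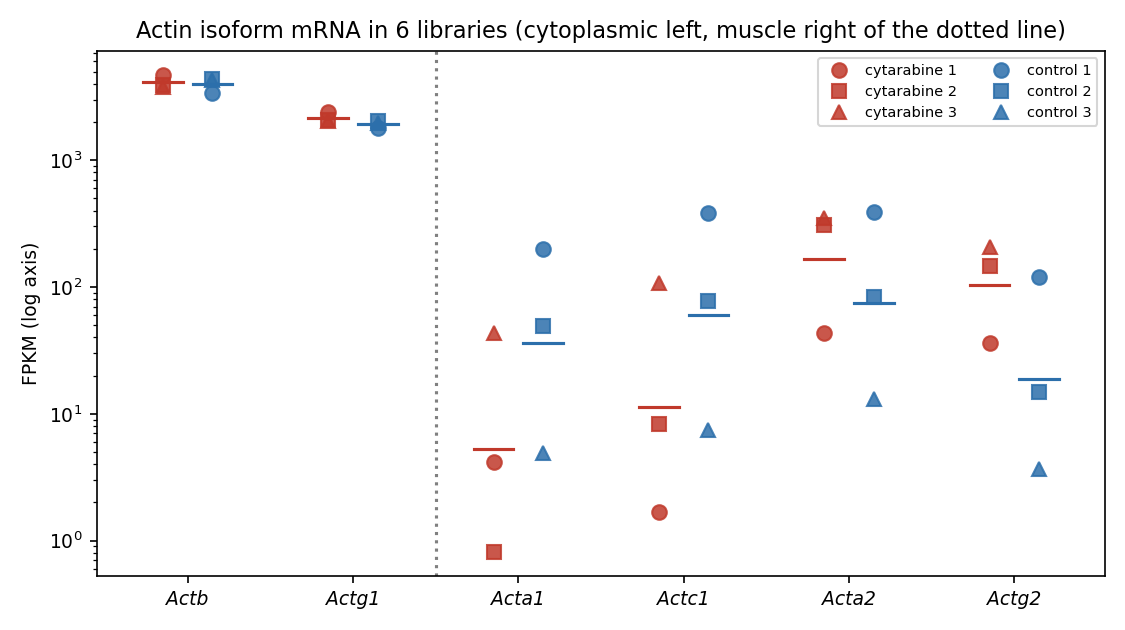
FPKM of each actin isoform (log axis) in the 3 cytarabine and 3 control libraries, with a horizontal bar at the geometric mean of each group. The cytoplasmic isoforms cluster within 1.41-fold for Actb and 1.33-fold for Actg1, while each muscle isoform spreads over 29.6-fold or more and its groups overlap.

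Within a library Actb was above Actg1, Actg1 above Acta2 and Acta2 above Actc1 in 6 of 6 libraries. The narrowest of these gaps was between Acta2 and Actc1, whose ratio was 1.02 in control 1. Below that the order was not the same in the cytarabine and the control libraries. Actg2 was above Actc1 and Acta1 in 3 of 3 cytarabine libraries and below both in 3 of 3 control libraries. Actc1 and Actg2, and likewise Actg2 and Acta1, therefore cannot be ordered over all 6 libraries. Such splits were common in these data. Over all pairs of tested genes with a value above 0 in every library, 24.7% of ratios did not overlap between the groups.

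The contrast between the classes was large in each library but not steady. The cytoplasmic isoforms summed to 7106, 6007 and 5806 FPKM with cytarabine, against 5142, 6435 and 6294 FPKM in controls. The 4 muscle isoforms summed to 85.5, 461.6 and 706.1 FPKM with cytarabine, against 1094, 223.9 and 29.3 FPKM in controls. Muscle isoforms thus made up 1.19, 7.14 and 10.8% of all actin FPKM in cytarabine 1, 2 and 3, against 17.5, 3.36 and 0.463% in control 1, 2 and 3. Cytoplasmic actin exceeded muscle actin 83.1-, 13.01- and 8.22-fold with cytarabine and 4.70-, 28.7- and 215-fold in controls. Control 1 held the largest muscle share and control 3 the smallest, with the cytarabine libraries between them. The log2 ratio of muscle to cytoplasmic actin was -4.37 ± 1.77 (SD, n = 3) with cytarabine, against -4.94 ± 2.76 (SD, n = 3) in the control group, a difference of 0.57 that lies within the spread of either group. Leaving out 1 library at a time moved it between -0.83, without control 3, and 1.92, without control 1. It was -1.14 within cytarabine 2, cytarabine 3 and control 1, the libraries high in colon transcripts, and -0.08 within the other 3, so its sign turned on both sides.

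The cytoplasmic isoforms held to a nearly fixed proportion. Actb over Actg1 was 1.99, 1.91 and 1.84 with cytarabine and 1.89, 2.13 and 2.18 in controls, and cytarabine 1 and 2 lay above control 1. The mean log2 ratio was 0.93 ± 0.06 (SD, n = 3) with cytarabine, against 1.04 ± 0.11 (SD, n = 3) in the control group. All 6 isoforms together took between 0.961% and 1.11% of the summed FPKM of a library, so total actin mRNA varied less than its make-up.

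The comparison of treated with control mice asks which actin genes differ in the fraction sorted as AML cells after chemotherapy. It was made with limma on log2(FPKM + 1), a scale that understates the change of low genes, and p-values were adjusted by Benjamini-Hochberg over the 11703 genes whose mean reached 1 FPKM. All 6 isoforms passed that filter. None of the 6 was called at an adjusted p under 0.05, as were 0% of the tested genes, and the smallest adjusted p of any gene was 0.0551. At an unadjusted p under 0.05 again 0 of 6 isoforms passed, against 17.4% of all tested genes, made up of 7.60% that were higher in treated mice and 9.81% that were lower. The groups overlapped for all 6 isoforms, whereas 23.8% of tested genes had groups that did not overlap.

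For Actb the difference, cytarabine minus control, was 0.05 on the log2 scale (SE 0.14, 95% interval -0.30 to 0.39, adjusted p = 0.862 from limma). Actg1 differed by 0.16 (SE 0.09, 95% interval -0.07 to 0.38, adjusted p = 0.387). Both intervals lie within 0.39 of 0 on the log2 scale. For the muscle isoforms the intervals were wide. Acta1 differed by -2.39 (SE 1.65, 95% interval -6.45 to 1.68, adjusted p = 0.442) and Actc1 by -2.19 (SE 1.85, 95% interval -6.74 to 2.36, adjusted p = 0.517). Acta2 differed by 1.12 (SE 1.39, 95% interval -2.31 to 4.54, adjusted p = 0.656) and Actg2 by 2.33 (SE 1.29, 95% interval -0.85 to 5.52, adjusted p = 0.376). The means of the striated isoforms were lower and those of the smooth muscle isoforms higher with cytarabine, and every interval included 0.

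**Figure D2:**
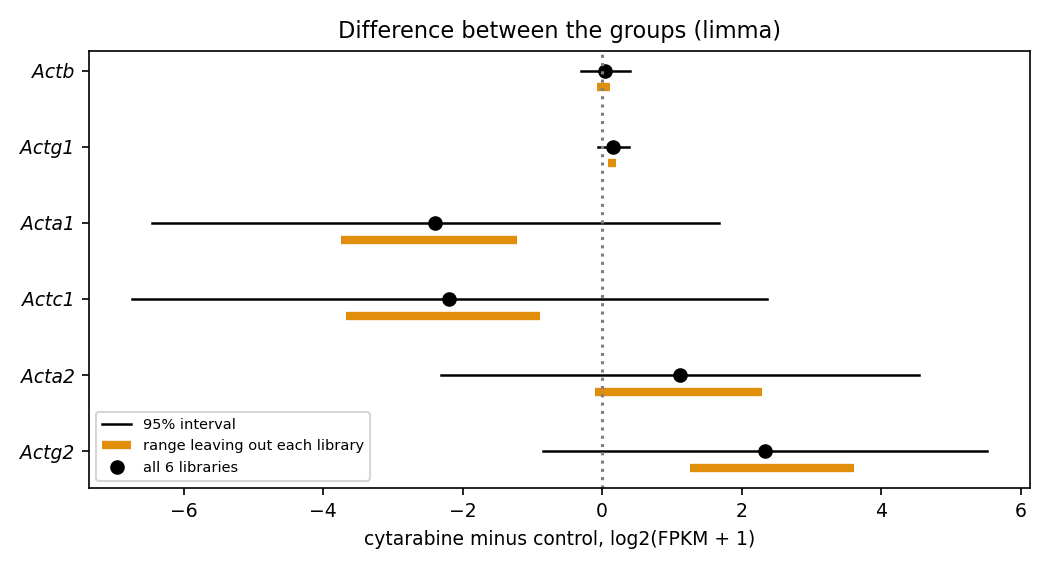
Difference between cytarabine and control libraries for each isoform on the log2(FPKM + 1) scale, with points for the fit of all 6 libraries, black lines for 95% intervals and orange bars for the range when each library is left out in turn. All 6 intervals cross 0, and those of the muscle isoforms are several log2 units wide.

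The muscle isoforms did not rise and fall as a single group. Libraries fell in the order control 1, cytarabine 3, control 2, cytarabine 2, control 3, cytarabine 1 for Actc1, and control 1, control 2, cytarabine 3, control 3, cytarabine 1, cytarabine 2 for Acta1. For Acta2 the order was control 1, cytarabine 3, cytarabine 2, control 2, cytarabine 1, control 3, and for Actg2 it was cytarabine 3, cytarabine 2, control 1, cytarabine 1, control 2, control 3. Cytarabine 2 is the library that separates them, with much Acta2 and Actg2 beside hardly any Acta1 and Actc1.

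The amount of muscle actin overlapped between the groups, while its make-up did not in these 6 libraries. The comparison of make-up was chosen after the values were seen and carries no test. No share over other genes was computed for the striated percentage. Acta1 and Actc1 together made up 6.82, 1.96 and 21.3% of muscle actin FPKM in cytarabine 1, 2 and 3, against 53.2, 56.5 and 42.4% in control 1, 2 and 3. Every control library lay above every cytarabine library, with a mean of 50.7% ± 7.39 (SD, n = 3) in the control group and 10.04% ± 10.1 (SD, n = 3) in the treated group. Of the 15 ratios between any 2 isoforms, 5 did not overlap between the groups, namely the 4 ratios of a striated over a smooth muscle isoform and Acta2 over Actg2. Over all pairs of the 11334 tested genes with a value above 0 in every library, 24.7% of ratios did not overlap. Ratios without overlap were thus common in these data, and the 15 ratios share their genes and are not independent. Acta2 over Actg2 was 1.19, 2.10 and 1.68 with cytarabine and 3.24, 5.61 and 3.60 in controls. Actc1 over Acta1 was 0.402, 10.1 and 2.50 with cytarabine and 1.95, 1.57 and 1.51 in controls, so the controls were close to each other and the cytarabine libraries were not.

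**Figure D3:**
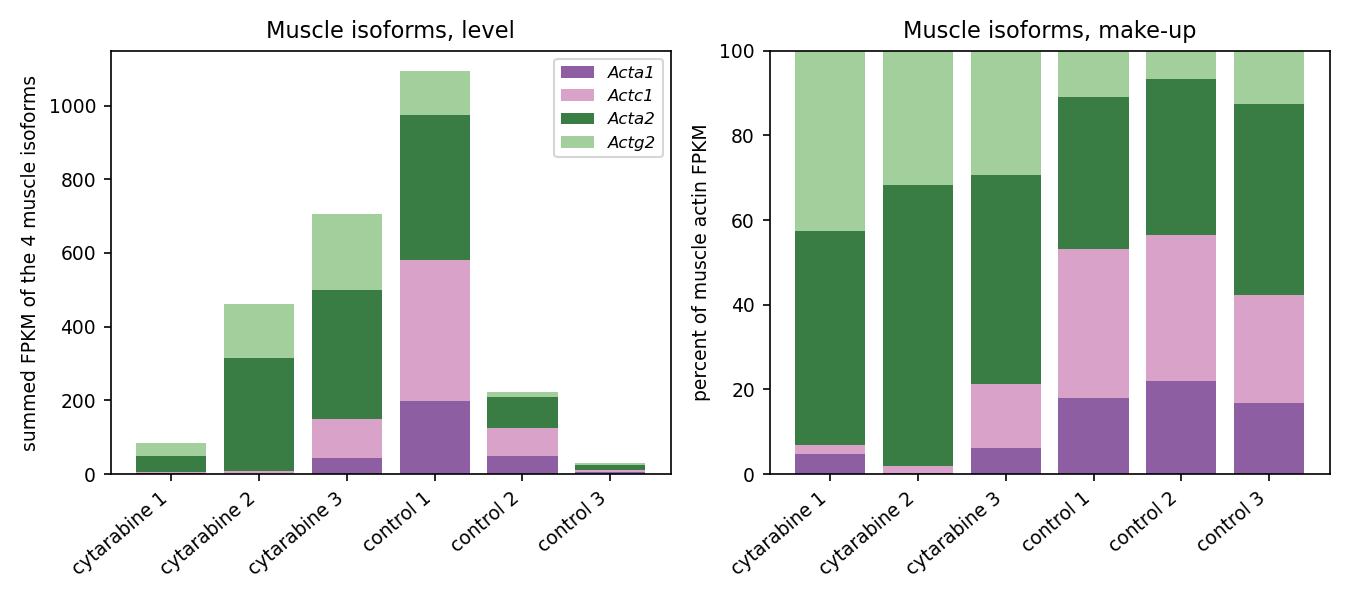
Summed FPKM of the 4 muscle isoforms in each library (left) and the share of each isoform in that sum (right). The sum runs from 29.3 FPKM in control 3 to 1094 FPKM in control 1, while the purple share of Acta1 and Actc1 is 42.4% or more in each control and 21.3% or less in each cytarabine library. The split by make-up was picked after the values were seen and was not tested.

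Markers of tissues other than leukemia moved with these isoforms. The heart list had 10 genes, of which 8 passed the filter and 1, Nppb, was at 0 in all libraries. Its summed level was 6.04, 14.4 and 606.9 FPKM in cytarabine 1, 2 and 3, against 2248, 494.0 and 47.8 FPKM in control 1, 2 and 3. Nppa, which encodes the atrial natriuretic peptide, was its most abundant member in cytarabine 3 and all 3 controls, but not in cytarabine 1 and 2, with 2.08, 1.27 and 392.7 FPKM with cytarabine and 1479.7, 318.3 and 30.6 FPKM in controls. The smooth muscle list, with 10 of 10 genes tested, summed to 49.99, 604.0 and 663.9 FPKM with cytarabine, against 468.5, 76.9 and 11.3 FPKM in controls. The heart sum over the smooth muscle sum was 0.121, 0.0238 and 0.914 with cytarabine and 4.80, 6.43 and 4.24 in controls, which divides the groups as the make-up of muscle actin does. Their part in the isoform differences was not tested.

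The colon epithelium list, with 9 of 9 measured genes tested, summed to 242.7, 3111 and 3397 FPKM with cytarabine, against 1567, 18.3 and 20.1 FPKM in controls. Its 3 highest libraries, cytarabine 2, cytarabine 3 and control 1, are those high in Acta2 and Actg2. Within these 3 libraries the difference in log2(FPKM + 1) was -0.26 for Acta2, 0.52 for Actg2, -4.47 for Acta1 and -3.61 for Actc1. Within the other 3 it was 0.36, 2.13, -1.74 and -3.27 for the same isoforms. Each value comes from 3 libraries without a test, and the lower side is uneven, with cytarabine 1 at 242.7 FPKM of colon transcripts beside at most 20.1 FPKM in control 2 and 3. Acta1 and Actc1 were lower with cytarabine on both sides, and Acta2 turned its direction.

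Skeletal muscle markers followed another order. Of 13 genes 6 were tested, and all 13 summed to 20.2, 29.8 and 31.7 FPKM with cytarabine and 31.8, 61.0 and 7.64 FPKM in controls. Tnni2, the fast skeletal troponin I, was at 7.88 FPKM in control 2 and at most 0.487 FPKM elsewhere. Tnnt3 and Tnnc2 were likewise highest in control 2, at 7.93 and 5.65 FPKM, and at most 0.642 and 0.924 FPKM elsewhere. Of the list, only Ckm, Myl1 and Mybpc2 were highest in another library. Control 2 was the second highest library for Acta1, at 49.3 FPKM, against 197.6 FPKM in control 1, where Tnni2 was at 0.457 FPKM. Ckm, the muscle creatine kinase and the most abundant gene of the list, was instead at its highest, 20.2 FPKM, in control 1, with 13.6 FPKM in cytarabine 3 and 10.5 FPKM in control 2. Myl1, a light chain of fast skeletal myosin, was at 9.61, 13.2 and 10.5 FPKM with cytarabine, against 4.94, 9.50 and 2.70 FPKM in controls, higher without overlap (unadjusted p = 0.0441, limma adjusted p = 0.277). The pattern of Acta1 lay farther from the skeletal sum, at 2.06, than from the heart sum, at 1.11, in the root mean square measure described next.

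The tested genes with patterns most like Acta1, Actc1 and Acta2 included contractile genes, and those most like Actg2 did not. Likeness was measured as the root mean square difference of log2(FPKM + 1) over the 6 libraries after centring each gene on its own mean, which describes shared patterns of libraries and nothing else. Nearest to Actc1 were Tnnt2, the cardiac troponin T, at 0.22, the pseudogene Rps19-ps3 at 0.50 and Tnni3, the cardiac troponin I, at 0.50. Nearest to Acta1 were the predicted gene Gm6981 at 0.42, Myh7, the beta heavy chain of cardiac myosin, at 0.46 and Actn2, the alpha-actinin of striated muscle, at 0.47. Tnnt2 was at 0.759, 9.18 and 100.8 FPKM with cytarabine, against 354.0, 72.9 and 6.74 FPKM in controls. These values lie close to those of Actc1 in every library but cytarabine 1, where Actc1 was at 1.67 FPKM.

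Acta2 was nearest to Selm at 0.13, to Tpm2, the beta-tropomyosin of muscle, at 0.14 and to Cald1, the caldesmon that binds actin in smooth muscle, at 0.23. Tpm2 was at 7.44, 69.5 and 77.9 FPKM with cytarabine, against 92.3, 14.5 and 1.83 FPKM in controls, the same library order as Acta2. Actg2 was nearest to S100a16 at 0.31, 2200002D01Rik at 0.36 and Anxa4 at 0.43, none of which is a contractile gene. S100a16 was at 4.72, 41.5 and 54.7 FPKM with cytarabine, at 26.1 and 3.39 FPKM in control 1 and 2, and listed at 0 in control 3. Against summed marker lists, Acta1 and Actc1 were nearest to heart at 1.11 and 0.73, and Acta2 and Actg2 to smooth muscle at 0.46 and 0.60.

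**Figure D4:**
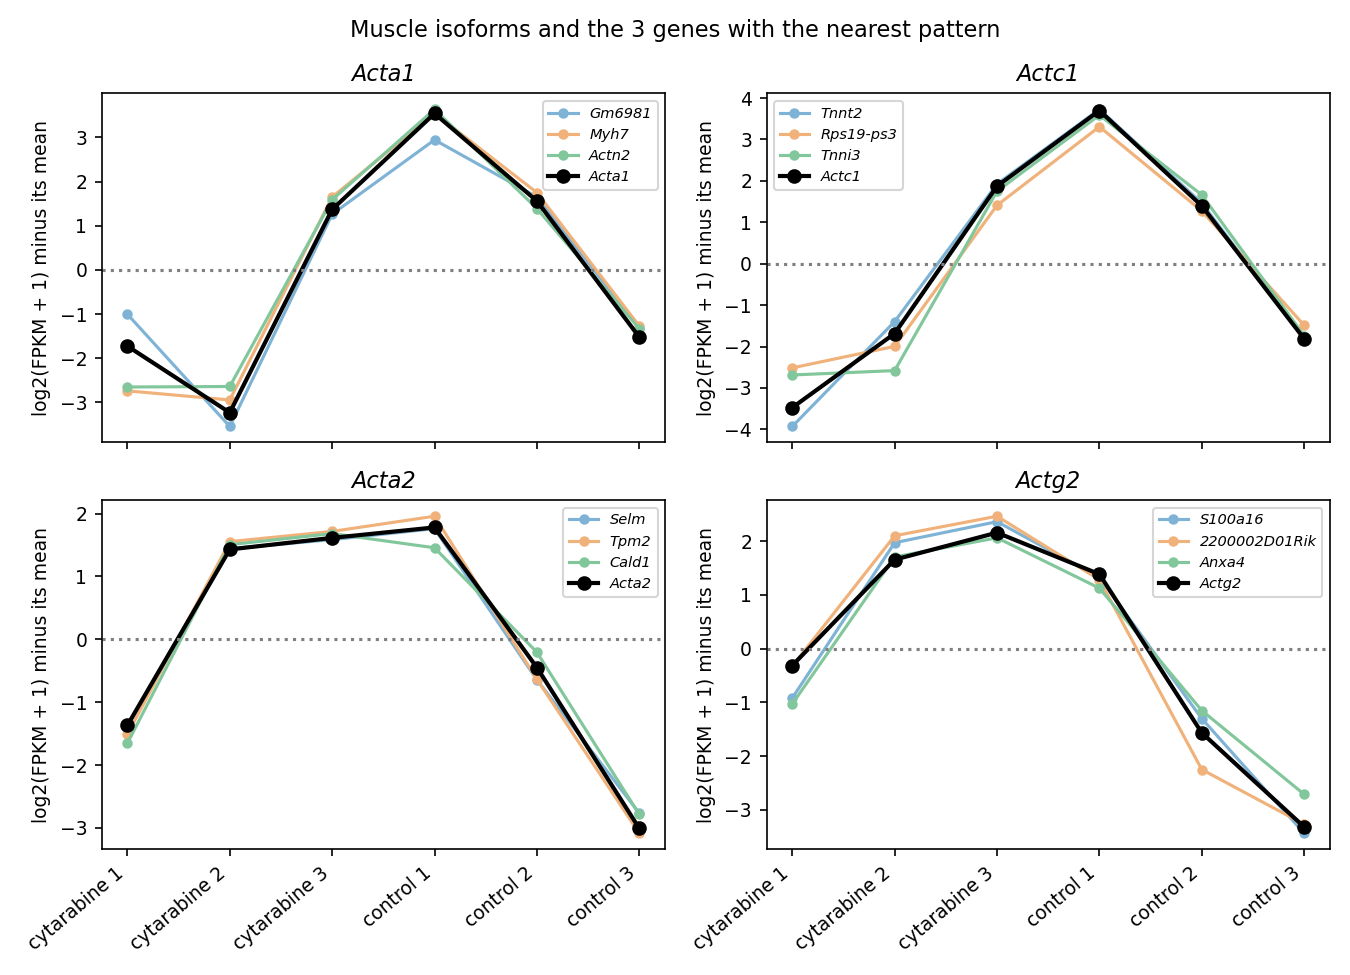
Centred log2(FPKM + 1) of each muscle isoform (black) and of the 3 tested genes with the most similar pattern (colours) over the 6 libraries. The striated isoforms are low in cytarabine 1, cytarabine 2 and control 3 and peak in control 1, while Acta2 and Actg2 are high in cytarabine 2, cytarabine 3 and control 1.

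The cytoplasmic isoforms had neighbours of another kind. Actb was nearest to 4831426I19Rik at 0.03, Smad3, a mediator of TGF-beta signals, at 0.03 and Nt5c3l at 0.03. Actg1 was nearest to Elk4, an ETS factor that binds DNA together with SRF, at 0.02, Rapgef6 at 0.03 and Lat2 at 0.03. Small differences are easily reached by genes that vary little, and many tested genes do. Elk4 was at 25.3, 22.5 and 22.2 FPKM with cytarabine, against 19.2, 22.3 and 20.8 FPKM in controls, highest in cytarabine 1 and lowest in control 1 as Actg1 was.

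Muscle and general forms of other actin-binding proteins were set side by side. Over 8 pairs, each with 1 general form of its family, the muscle form ranged from 4.17-fold (Cfl2, the cofilin of muscle) to 359-fold (Actn2) between the lowest and highest library, and the other form from 1.16-fold (Cfl1) to 1.69-fold (Flna). In all 8 pairs, which were chosen with earlier results of these data known, the muscle form had the wider range. Smooth muscle myosin Myh11 ranged over 185-fold and nonmuscle myosin Myh9 over 1.23-fold. Calponin gave 192-fold for Cnn1 and 1.42-fold for Cnn2, and transgelin 62.3-fold for Tagln and 1.43-fold for Tagln2.
The regulatory light chains Myl9 and Myl12a had 56.3-fold and 1.44-fold, the tropomyosins Tpm2 and Tpm3 50.5-fold and 1.27-fold, and the filamins Flnc and Flna 79.2-fold and 1.69-fold. Actn4, the nonmuscle alpha-actinin, had 1.33-fold. Some further members of these families, taken from the list of filament partners and of monomer-binding genes, did not keep to the low range of the general forms in the pairs. Myh14 and Myh10, both nonmuscle myosins, ranged over 397-fold and 28.9-fold, Cnn3 over 17.0-fold, Actn1 over 8.36-fold and Tpm1 over 8.24-fold. Dstn ranged over 2.59-fold, Myl12b over 1.96-fold and Tpm4 over 1.26-fold.

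**Figure D5:**
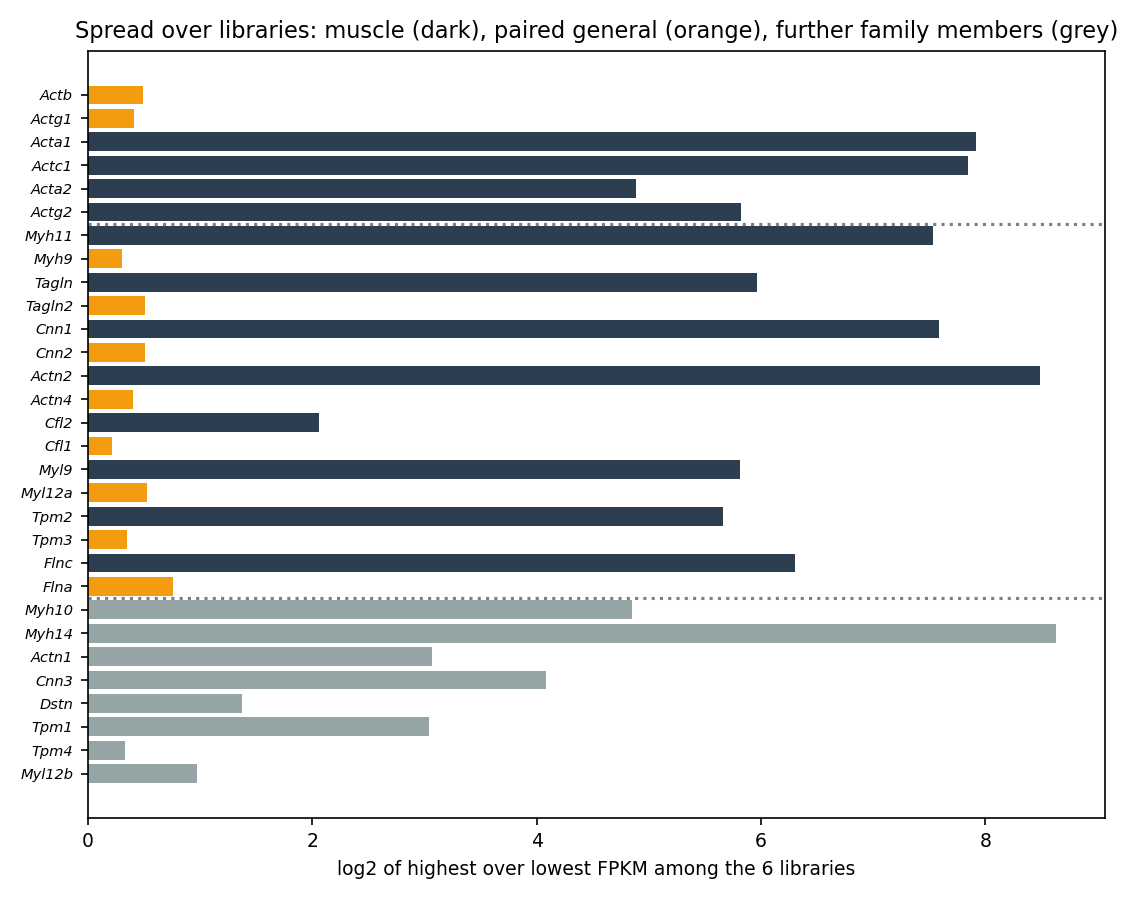
Log2 of the highest over the lowest FPKM among the 6 libraries for the 6 actin isoforms (top), 8 pairs of actin-binding proteins (middle) and 8 further members of the same families (bottom), with muscle forms dark, general forms of a pair orange and further members grey. Dark bars are longer than their orange partners, while grey bars run from 1.26-fold for Tpm4 to 397-fold for Myh14.

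Genes that handle actin were then read from lists, none of whose members passed an adjusted p under 0.05. The median difference of all tested genes was 0.00 on the log2 scale. Of 14 tested genes that fold actin, which are the chaperonin TRiC and its helpers, 4 were lower at an unadjusted p under 0.05 and none higher, with a median of -0.12. The lower ones were Cct3, Cct4, Cct6a and Cct7. Cct3 was at 249.8, 226.2 and 235.3 FPKM with cytarabine, against 288.7, 297.0 and 281.9 FPKM in controls, without overlap (log2 difference -0.29, SE 0.06, limma adjusted p = 0.151).

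Of 13 tested genes that bind monomers or sever filaments, 3 were higher at an unadjusted p under 0.05 and none lower, with a median of 0.19. These were Dstn (destrin), Wdr1, which helps cofilin disassemble filaments, and Twf1 (twinfilin). Dstn was at 283.8, 443.0 and 490.3 FPKM with cytarabine, against 313.8, 191.4 and 189.3 FPKM in controls, highest in the 3 libraries high in colon transcripts, and its groups overlapped. Tmsb4x, the thymosin that sequesters monomers, was at 3987, 4167 and 3617 FPKM with cytarabine, against 3373, 3729.7 and 3199 FPKM in controls, in the range of Actb.

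Among 18 tested filament partners 1 was higher and 1 lower at that level, with a median of 0.11. Myl12b, a regulatory light chain of nonmuscle myosin, was at 353.2, 461.4 and 435.6 FPKM with cytarabine, against 252.5, 245.9 and 235.5 FPKM in controls (log2 difference 0.76, SE 0.11, limma adjusted p = 0.131). Tagln2 was the lower one (-0.26, SE 0.10, adjusted p = 0.252). Of 10 tested actin-related proteins 1, Actr8 of the INO80 complex, was lower (-0.33, SE 0.09, adjusted p = 0.192), and the median was -0.11. Of 8 tested genes that modify actin 0 passed in limma, with a median of 0.03, and Setd3, which methylates a histidine of actin, lay between 39.7 and 46.5 FPKM in all libraries.

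Of 6 tested genes of SRF and its cofactors 0 passed the unadjusted p in limma, with a median of -0.10. Srf was at 54.1, 39.2 and 38.1 FPKM with cytarabine, against 41.8, 45.3 and 49.0 FPKM in controls. Mkl1 was at 20.5, 17.3 and 15.9 FPKM with cytarabine, against 17.6, 23.7 and 25.7 FPKM in controls. Both were lowest in cytarabine 3, and the groups overlapped. Myocd, the cofactor of heart and smooth muscle, did not pass the filter and was at most 0.440 FPKM, in cytarabine 3. Summed over the list, SRF and its cofactors were the list nearest to Actb in pattern, at 0.08. Actin-related proteins followed at 0.12 and actin folding at 0.15. For Actg1 the monomer-binding and severing list was nearest, at 0.10, ahead of SRF and its cofactors at 0.12. Lists whose sums vary little lie near isoforms that vary little, so this measure is uninformative about SRF. A link of the isoforms to SRF was not tested.

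Of 8 neutrophil genes 7 were lower with cytarabine at an unadjusted p under 0.05, and their sum was 188.8 to 1433 FPKM with cytarabine and 1438 to 2043 FPKM in controls. Markers of fibroblasts and pericytes summed to between 37.0 and 654.0 FPKM, of endothelium to between 19.4 and 31.4 FPKM, and of megakaryocytes and platelets to between 2.54 and 8.21 FPKM. In none of these 3 lists was a tested member called in limma at an unadjusted p under 0.05. Most of the endothelial sum was Pecam1, at 15.7 to 23.3 FPKM, so its narrow range is mainly that of 1 gene. Emcn, the next by level, ran from 0.0626 FPKM in cytarabine 1 to 3.33 FPKM in cytarabine 3.

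The differences of the isoforms moved when the transcripts of other tissues were entered as a covariate, the mean log2(FPKM + 1) of a marker list in each library. With the colon list as covariate the difference was 0.31 for Actb (SE 0.08, adjusted p = 0.225), 0.30 for Actg1 (SE 0.08, adjusted p = 0.219) and -5.10 for Actc1 (SE 1.48, adjusted p = 0.240), with unadjusted p of 0.00994, 0.00884 and 0.0154 from limma. In the same fit Acta1 differed by -4.28, Acta2 by -1.34 and Actg2 by -0.06. Of 11703 tested genes, 1774 had an unadjusted p under 0.05 in this colon fit. With the heart list as covariate Acta1 differed by -0.16 and Actc1 by 0.36, while Acta2 differed by 2.73 (adjusted p = 0.158) and Actg2 by 3.88 (adjusted p = 0.145), with unadjusted p of 0.0370 and 0.00576. In the heart fit Actb differed by -0.09 and Actg1 by 0.09. There 3338 of 11703 tested genes had an unadjusted p under 0.05, so passing that level was common in both fits. The direction for Actb, Actc1, Acta2 and Actg2 thus depended on which marker list was the covariate. Tnnt2 and Myh7 of the heart list were among the genes nearest to Actc1 and Acta1. The heart fit therefore cannot separate these isoforms from that list. The colon score was 5.91 ± 2.00 (SD, n = 3) with cytarabine and 2.67 ± 2.81 in controls. For the heart score these were 1.74 ± 1.90 and 3.55 ± 1.93. In 6 libraries such a covariate and the treatment cannot be fully told apart. Without control 1, Actg2 had an unadjusted p of 0.0108 and an adjusted p of 0.241 in limma. In that fit 2132 of 11632 tested genes had an unadjusted p under 0.05.

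Cytarabine 1 and control 3 had the smallest muscle shares. Between them Actb was 1.10-fold and Actg1 1.201-fold higher in cytarabine 1, differences from 1 library each. In the same pair Actg2 was 9.94-fold and Acta2 3.28-fold higher in cytarabine 1, and Acta1 and Actc1 were at 0.842 and 0.224 of the control level.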

How the data were processed

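RNA was measured in the fraction sorted as AML cells from 3 mice given cytarabine and 3 control mice, with 1 library per mouse. The submitters' processing notes name TopHat2 2.0.13, Bowtie2 2.2.3, SAMtools 0.1.19, Cufflinks 2.2.1 and the build mm10, and the authors deposited FPKM per gene. Annotation and Cufflinks options are not given in the sources used here. FPKM already divides out length and library size, so no count test was run. Reads shared by similar genes may be assigned in ways that shift Actb and Actg1.

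Genes whose mean reached 1 FPKM (11703 of 23284) were tested on log2(FPKM + 1) with limma 3.58.1 in R 4.3.3 (lmFit, eBayes with trend, two-sided, Benjamini-Hochberg). The step was run on simulated data with independent noise for each gene, which lack the tissue transcripts that vary together in these libraries. Isoform proportions were computed from FPKM without a test. Depth was inferred from the steps of low FPKM of 3457 genes with 1 transcript, assuming 200-base fragments, with 68.7 to 72.3% of low values within 0.1 of a whole read. Read numbers derived from it are approximate. Gene positions and transcripts come from the GENCODE annotation of GRCm38 and promoters from RefSeq. Coding sequences were aligned with MAFFT 7.526, and similar windows were found with BLAST+ 2.17.0. Plots used matplotlib 3.10.9 under Python 3.11.15.

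The isoforms and all gene lists were chosen with earlier results of these data known. Named genes are the isoforms, the 3 genes nearest to each in pattern, members of each list with the highest level or the smallest p, and both sides of 8 pairs of muscle and general forms. Other list members, the identity markers, the ratios between single isoforms, further members of the paired families and the comparison of cytarabine 1 with control 3 were chosen after values were seen. A further list member is not reported here. Same-numbered libraries are different mice and were not treated as pairs. Alternatives were other pseudocounts, filters, scalings and eBayes settings, the replicate block, tissue scores as covariates, comparisons within the 3 libraries highest and the 3 lowest in colon transcripts, and leaving out each library.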

Additional observations from a re-analysis of the deposited data

How the results depend on the processing

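No isoform had an adjusted p under 0.05 under any alternative run. With the heart score as a covariate the log2 difference was -0.0925 for Actb and 0.36 for Actc1, turned against the fit of all libraries, and with the colon score it was -1.34 for Acta2 and -0.0624 for Actg2. Within the 3 libraries highest in colon transcripts Acta2 was at -0.26, and the log2 ratio of Actb to Actg1 differed by -0.0088 between the groups in place of -0.11. The log2 ratio of muscle to cytoplasmic actin differed by -1.14 within these libraries and by -0.08 within the other 3, in place of 0.57. Leaving out each library gave ranges of -0.0763 to 0.12 for Actb, 0.09 to 0.20 for Actg1, -3.75 to -1.22 for Acta1, -3.67 to -0.89 for Actc1, -0.11 to 2.29 for Acta2 and 1.26 to 3.61 for Actg2. The sign of Actb turned without control 1 and without cytarabine 1, and that of Acta2 without control 3. The number of all genes at an adjusted p under 0.05 was 1 with a pseudocount of 0.1, 2 without a trend, 1 with a robust trend, 1 with the heart score, and 0 to 6 leaving out each library. The number at an unadjusted p under 0.05 was 2038 with all libraries, 3338 with the heart score and 1176 to 4111 leaving out each library, the most without cytarabine 1.

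Under the replicate block 994 genes had an unadjusted p under 0.05, and the isoform differences were 0.05, 0.16, -2.39, -2.19, 1.12 and 2.33 for Actb, Actg1, Acta1, Actc1, Acta2 and Actg2, as without the block. Deviations of same-numbered libraries correlated at -0.71, -0.25 and -0.59, so the numbers do not pair the mice. No isoform crossed the threshold with the block. The 3 mice per group and the wide intervals limit what can be seen for the muscle isoforms.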
